A study of Mus musculus with 6 samples.

Results

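Toll-like receptors are membrane proteins by which innate immune cells sense microbial molecules, and molecules released by dying cells have been reported as ligands of several of them. A horseshoe of leucine-rich repeats binds the ligand, and a cytoplasmic TIR domain then recruits adaptor proteins that lead to NF-kappaB and interferon regulatory factors. Receptors for lipids and proteins sit mainly at the cell surface, whereas receptors for nucleic acids sit in endosomes. Of 28312 named genes on the array, 10 were taken as the Toll-like receptors by their gene name in the scanner files, namely Tlr1, Tlr2, Tlr3, Tlr4, Tlr5, Tlr6, Tlr7, Tlr8, Tlr9 and Tlr13. They were represented by 12 probes, and 9 of the 10 receptors were among the 16365 genes that could be tested.

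The study hybridised 6 single-colour arrays. Myeloid cells sorted out of the infarcted left ventricle gave the arrays called heart 1, heart 2 and heart 4, and those sorted out of the spleen gave spleen 1, spleen 2 and spleen 4. All mice were wild type, of the strain C57BL/6N, and were sampled on day 3 of acute myocardial infarction, so the spleens also came from infarcted animals and no uninjured animal is included. The cells of both tissues were sorted by flow cytometry as high for CD45 and CD11b and low for B220, Thy-1.2, NK-1.1, DX5 and Ly6G, antigens found on B cells, T cells, NK cells or neutrophils. The comparison asks how receptor RNA in myeloid cells of the injured ventricle differed from that in myeloid cells of the spleen. The labels state that organs were analysed individually and do not state whether a ventricle and a spleen of the same number came from 1 animal.

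The array reads each receptor through probes of 60 bases, whose positions are given in the mouse build mm9. The probes of Tlr1 and Tlr2 are shown because these receptors are relatives that act as partners, so a reader can see that their probes are distinct. Both lie on the minus strand, at chr5:65316115-65316174 for Tlr1 and at chr3:83640344-83640403 for Tlr2, and the capitals mark the longest run of bases they share, which is 7 bases long. The third sequence is the upstream Tlr8 probe (chrX:163683356-163683415, minus strand), which gave no signal well above background on any array.
Tlr1 probe: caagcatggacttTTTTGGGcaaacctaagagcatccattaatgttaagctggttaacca
Tlr2 probe: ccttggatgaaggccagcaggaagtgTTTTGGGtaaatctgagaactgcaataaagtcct
Tlr8 upstream probe: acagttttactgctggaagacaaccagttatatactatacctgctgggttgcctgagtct
Between probes of any pair of different receptors, the longest shared run was 8 bases. The neighbouring genes Tlr1 and Tlr6 were read 28190 bases apart and the neighbours Tlr7 and Tlr8 59447 bases apart. Tlr7 and Tlr8 had 2 probes each and the other receptors 1, which for Tlr2 was spotted 10 times.

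Promoters are shown for Tlr2 and Tlr5, the receptors with the largest changes below. The RefSeq promoter sequences were of the build GRCm38.p6, each of 300 bases with 250 before and 50 after the start site. They held 10 entries for 8 of the 10 receptors. Tlr1 and Tlr6 had more than 1 entry each, and Tlr4 and Tlr7 had none. Capitals mark matches on either strand to the motifs searched. They were the PU.1-type motif GAGGAA, the Sp1 box GGGCGG, the motif TATAAA that is bound by the TATA-binding protein, the NF-kappaB consensus, and the interferon regulatory factor motif, in which GAAA is repeated with any 2 bases between. The Tlr2 promoter lies at chr3:83841559-83841858 on the minus strand and the Tlr5 promoter at chr1:182954538-182954837 on the plus strand.
Tlr2 promoter: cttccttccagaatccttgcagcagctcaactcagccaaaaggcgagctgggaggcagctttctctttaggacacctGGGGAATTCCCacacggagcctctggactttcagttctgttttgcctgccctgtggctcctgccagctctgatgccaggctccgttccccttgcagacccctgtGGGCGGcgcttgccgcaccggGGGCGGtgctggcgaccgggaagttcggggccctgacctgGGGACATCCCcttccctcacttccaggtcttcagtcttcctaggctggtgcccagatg
Tlr5 promoter: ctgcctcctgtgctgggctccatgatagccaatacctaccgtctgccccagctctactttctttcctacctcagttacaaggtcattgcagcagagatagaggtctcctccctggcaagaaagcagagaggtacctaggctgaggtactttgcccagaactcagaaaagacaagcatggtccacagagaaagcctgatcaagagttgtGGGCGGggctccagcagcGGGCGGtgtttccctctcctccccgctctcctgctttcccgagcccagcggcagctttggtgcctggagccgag
In the Tlr2 window GGGCGG began at -69 and -48 from the start site, and the NF-kappaB consensus at -173, at -172 (overlapping the match before it) and at -8. In the Tlr5 window GGGCGG began at -42 and -24. GGGCGG was present in 35.7% of all 32851 promoters of that length and in 3 of the 10 receptor promoter entries (of Tlr2, Tlr3 and Tlr5). The NF-kappaB consensus was present in 8.46% of all promoters and in 2 receptor promoters (of Tlr2 and Tlr3). GAGGAA was present in 28.3% of all promoters and in 4 receptor promoters (of Tlr1, Tlr8, Tlr9 and Tlr13). TATAAA was present in 13.6% and in 2 receptor promoters (of Tlr6 and Tlr8), and the GAAA repeat in 3.44% and in 1 (of Tlr6).

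The share of probes well above background ranged between 53% and 63.8% over the arrays, and the signal at the 75th percentile of an array was 1557 to 1989 intensity units. Levels below are log2 signals minus that percentile of the same array, so a level of 0 equals it, and levels of different probes are not comparable. Pairs of heart arrays correlated at 0.992 on average, pairs of spleen arrays at 0.95 and a heart with a spleen array at 0.909, across 16304 genes, which are no replicates of each other. Spleen 4 stood nearest to the hearts, with a mean correlation of 0.934 to them, against 0.89 for spleen 1 and 0.903 for spleen 2. Of all tested genes, 9.04% were called higher in heart and 6.46% lower, by the test given below. All 9 macrophage markers were above background in both tissues, and 6 of 9 were higher in heart. Their summed level lay between 219 and 269 in heart and between 57 and 127 in spleen, and the spleen with 127 was spleen 4. Of 9 monocyte markers 2 were higher and 0 lower, with sums of 378 to 429 in heart and 183 to 362 in spleen. Neutrophil markers went the other way, with 7 of 11 lower in heart and summed levels of 23 to 30 in heart, against 448 to 1010 in spleen. Of these 7, Ngp was above background on 1 heart array only and entered the test through spleen alone. B cell markers summed to 2.66 to 3.05 in heart and to 4.54 to 116 in spleen, where the 116 was spleen 1. Markers of T and natural killer cells summed to 2.7 to 2.91 in heart and to 2.84 to 53.5 in spleen, again with spleen 1 highest. Of 7 fibroblast markers 4 were tested, and all 4 were higher in heart, at sums of 1.5 to 4.97 in heart and 0.112 to 0.173 in spleen. The untested ones were not well above background on all arrays of either tissue. Of 6 cardiomyocyte markers 3 were higher, at 0.608 to 0.906 in heart and 0.279 to 0.369 in spleen. All these called genes but Col1a2 entered the test through heart alone, so both counts carry no weight as support. Plasmacytoid dendritic cell markers showed 0 of 7 changed (89.4 to 98 in heart, 75.3 to 109 in spleen). The part of these differences in the receptor results was not tested. In such bulk samples, fewer cells of a type and less RNA per cell cannot be told apart.

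Of the 9 receptors tested, 3 were higher in heart than in spleen and 0 were lower, at an adjusted p under 0.05 in limma with Benjamini-Hochberg adjustment over all tested genes. The 3 were Tlr2, Tlr4 and Tlr5, whose known ligands are bacterial lipoproteins, lipopolysaccharide and flagellin. Over all 16365 genes, 15.5% were called in either direction, 9.04% as higher in heart and 6.46% as lower. The log2 change was above 0 for 9 of 9 receptors (8 of 9 with quantile normalization), with a median of 0.79, against 0.11 for all tested genes. Heart lay above spleen with no overlap between the groups for 5 receptors (Tlr1, Tlr2, Tlr4, Tlr5 and Tlr9), and 24.6% of all genes did so. Overlap was found for the other 4 (Tlr6, Tlr7, Tlr8 and Tlr13). A trial of the fit on artificial values, spread as unequally as these tissues, made more false calls than the threshold allows. Calls with an adjusted p just under 0.05, here and in the gene lists below, are therefore weak.

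**Figure D1:**
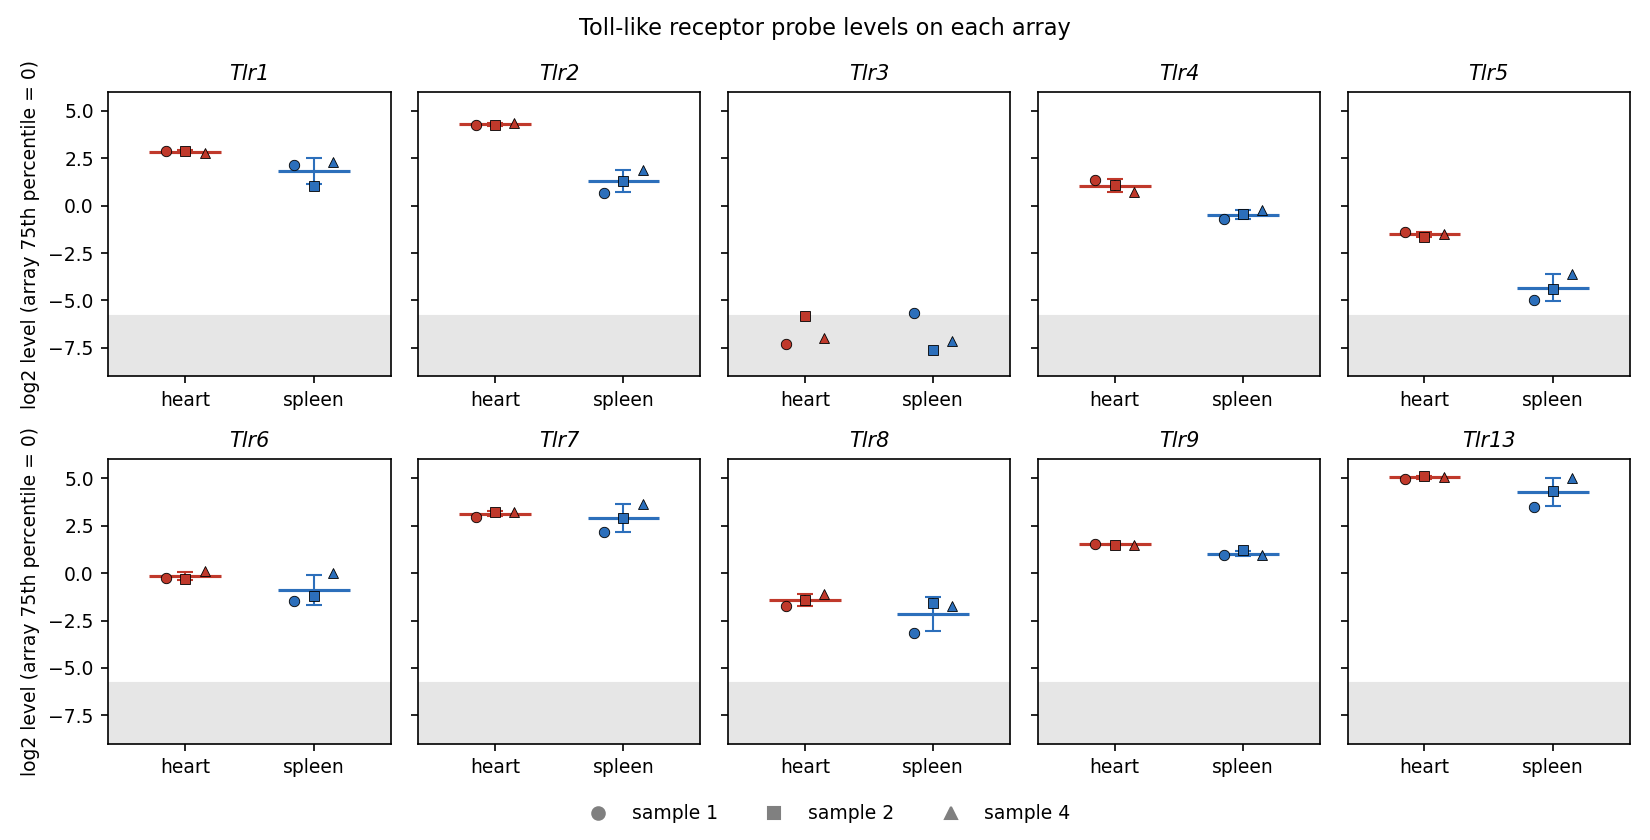
Level of each Toll-like receptor on each array, as log2 signal relative to the 75th percentile of the array, for heart (left, red) and spleen (right, blue). Symbols give the sample number, bars the mean and whiskers 1 SD of 3 arrays (not drawn for Tlr3), and the grey zone lies below the lowest level called well above background on any array. Panels are separate probes whose heights are not comparable. Tlr2, Tlr4 and Tlr5 stand clear of spleen, and all Tlr3 points lie in or at the edge of the grey zone.

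Tlr2, which forms pairs with Tlr1 or Tlr6 to bind lipoproteins, had levels of 4.25, 4.25 and 4.38 in heart 1, 2 and 4, against 0.69, 1.31 and 1.87 in spleen 1, 2 and 4. The hearts lay close together and every heart was above every spleen. The mean was 4.30 ± 0.08 in heart and 1.29 ± 0.59 in spleen (SD, n = 3 each). Tlr2 was 8.03-fold higher in heart (log2 3.01 ± 0.31 SE, 95% interval 2.26 to 3.75, adjusted p = 0.00351). It was called in each of the 6 repeats that left out 1 array.

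The partner Tlr1 stood at 2.91, 2.86 and 2.78 in heart, against 2.15, 1.05 and 2.31 in spleen. All hearts were above all spleens, and spleen 2 was the lowest. The difference was 1.01 ± 0.35 SE on the log2 scale (95% interval 0.18 to 1.85) and did not pass the test (adjusted p = 0.101). Tlr6, the other partner of Tlr2, gave -0.27, -0.30 and 0.10 in heart, against -1.46, -1.22 and 0.02 in spleen. Spleen 4 reached the level of the hearts, so the groups overlapped, and the difference of 0.73 ± 0.40 SE (95% interval -0.24 to 1.70) missed the threshold (adjusted p = 0.27). Without spleen 4, both partners passed, at log2 1.25 with adjusted p = 0.0488 for Tlr1 and log2 1.18 with adjusted p = 0.0131 for Tlr6. Both were called in that repeat alone of the 6 with 1 array left out. There 24.6% of all genes were called, against 15.5% with all arrays.

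Tlr4, the receptor for lipopolysaccharide, measured 1.37, 1.09 and 0.72 in heart, against -0.73, -0.42 and -0.25 in spleen. The groups did not overlap, and the spread was alike in both, with means of 1.06 ± 0.32 in heart and -0.47 ± 0.25 in spleen (SD, n = 3 each). Tlr4 was 2.88-fold higher in heart (log2 1.53 ± 0.24 SE, 95% interval 0.95 to 2.10, adjusted p = 0.0126). The call ended without heart 1 (log2 1.37, adjusted p = 0.067) and without heart 2 (log2 1.51, adjusted p = 0.068), while the size changed little. In these repeats 2.65% and 2.81% of all genes were called, against 15.5% with all arrays.

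Tlr5, the flagellin receptor, stood at -1.38, -1.65 and -1.52 in heart, against -4.98, -4.42 and -3.59 in spleen. These are dim levels, yet the probe was well above background on all 6 arrays and the groups lay far apart. The mean was -1.52 ± 0.13 in heart and -4.33 ± 0.70 in spleen (SD, n = 3 each), a 7.01-fold higher level in heart (log2 2.81 ± 0.36 SE, 95% interval 1.95 to 3.67, adjusted p = 0.00695). Leaving out any single array kept the call. With normexp background correction in place of the scanner's own, the log2 change was 2.10.

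Among the endosomal receptors, Tlr9 binds unmethylated CpG DNA. It measured 1.56, 1.5 and 1.48 in heart, against 0.94, 1.21 and 0.96 in spleen. The groups were tight and did not overlap. The difference was small, 0.48 ± 0.17 SE on the log2 scale (95% interval 0.08 to 0.88), and did not pass (adjusted p = 0.105).

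Tlr7 binds single-stranded RNA and was read by 2 probes, 283 bases apart. The brighter probe gave 2.98, 3.22 and 3.23 in heart, against 2.19, 2.92 and 3.63 in spleen. The groups overlapped, with spleen 4 above every heart and spleen 1 below every heart. The log2 difference was 0.23 ± 0.36 SE (95% interval -0.65 to 1.11, adjusted p = 0.707). The other probe read 2.00, 2.40 and 2.04 in heart and 1.42, 1.78 and 3.17 in spleen, a difference of 0.03 ± 0.46 SE. Both probes placed the same spleen highest. The sign of this small difference changed with the scaling (-0.01 with quantile normalization).

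Tlr8, which in human cells also senses single-stranded RNA, had -1.73, -1.44 and -1.11 in heart, against -3.16, -1.55 and -1.75 in spleen. Spleen 1 was the lowest, spleen 4 lay just below the lowest heart and spleen 2 lay among the hearts. The difference of 0.73 ± 0.45 SE (95% interval -0.34 to 1.81) did not pass (adjusted p = 0.314). These values come from the downstream probe. The upstream probe printed above, 2730 bases away, was not well above background on any of the 6 arrays.

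Tlr13, a mouse receptor for bacterial ribosomal RNA, measured 4.99, 5.14 and 5.07 in heart, against 3.51, 4.32 and 5.0 in spleen. The hearts were close together, while the spleens spanned a wide range up to the level of the hearts. The difference was 0.79 ± 0.37 SE on the log2 scale (95% interval -0.11 to 1.69, adjusted p = 0.203). Without spleen 4 it was 1.15 and passed (adjusted p = 0.0335).

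Tlr3, the receptor for duplex RNA, gave -7.28, -5.85 and -6.98 in heart and -5.66, -7.64 and -7.16 in spleen. Its probe was well above background on spleen 1 alone, so it was not tested and no fold is given. Outside the 10 receptors, the array also carried Tlr11 and Tlr12, which in mice bind a profilin of Toxoplasma. Tlr11 was lower in heart, at -5.01, -6.05 and -5.74 in heart, against -2.99, -4.32 and -2.66 in spleen (log2 -2.28 ± 0.49 SE, adjusted p = 0.0289). Its probe was above background on all spleen arrays but on 1 heart array only, and the difference was -1.61 when the dim heart arrays were held at their background floor. Tlr11 entered the test through spleen alone, so its call carries no weight as support. Tlr12 was above background on 0 heart arrays and on 2 spleen arrays, with its highest level, -0.47, in spleen 1. It was not tested. The spleen mean was at least 2.38-fold higher than the bound for heart, but this rests on spleen 1. Without it the spleen mean, with dim arrays at their floor, was -5.23, below the bound for heart of -4.93, and no fold remains.

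**Figure D2:**
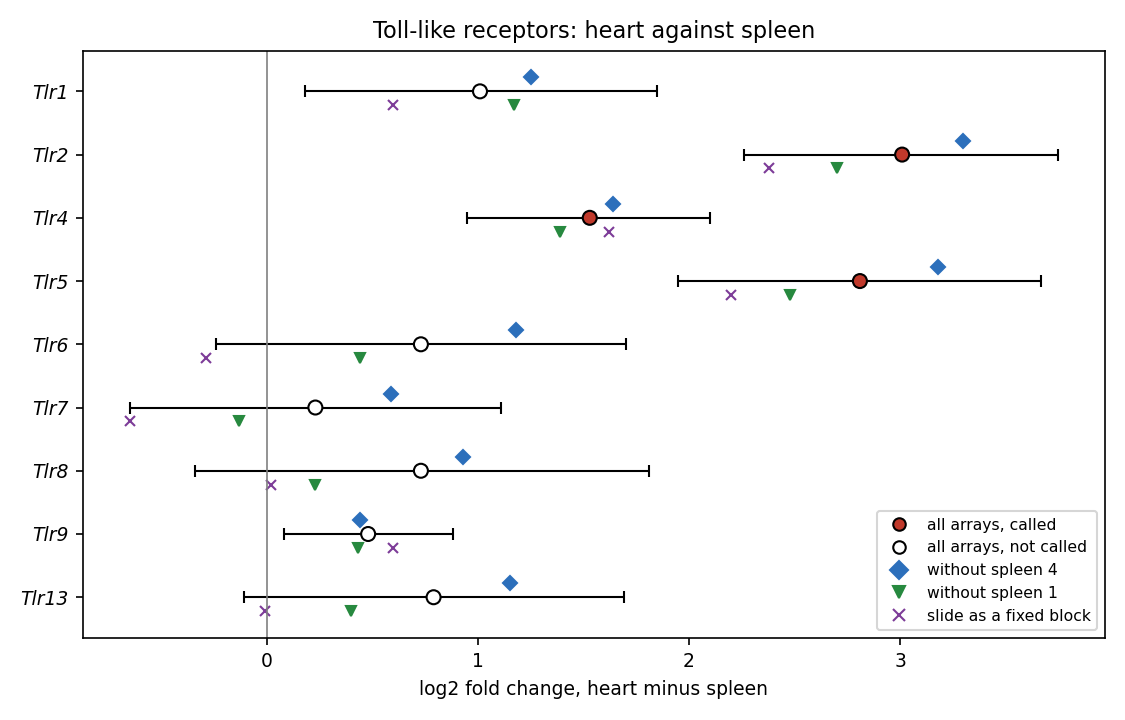
Log2 fold change, heart minus spleen, of the 9 receptors tested. Circles with 95% intervals use all arrays (red where called), diamonds leave out spleen 4, triangles leave out spleen 1 and crosses have the slide as a fixed block. Tlr2, Tlr5 and Tlr4 lie furthest to the right under each choice, and the crosses of Tlr6, Tlr7 and Tlr13 lie left of 0.

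The spread between samples of a tissue was unequal. Across the 9 receptors the median SD was 0.13 in heart and 0.70 in spleen, and the SD was larger in spleen for 8 of 9, Tlr4 being the exception. Over all tested genes the median SD was 0.14 in heart and 0.40 in spleen, and 84.1% of genes had the larger SD in spleen. Without spleen 4, the array nearest to the hearts, 6 receptors were called higher (Tlr1, Tlr2, Tlr4, Tlr5, Tlr6 and Tlr13). In that repeat 24.6% of all genes were called, so the background also grew.

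The slide of each array was inferred from the barcode in its file header. Of the 3 slides so inferred, only 1 held both tissues, with heart 1 and spleen 4. On that slide the log2 difference was 2.38 for Tlr2, 2.20 for Tlr5 and 1.62 for Tlr4. It was 0.60 for Tlr1, 0.60 for Tlr9, 0.02 for Tlr8, -0.01 for Tlr13, -0.29 for Tlr6 and -0.65 for Tlr7. On the shared slide, with 1 array per tissue, the difference was above 0 for the 3 called receptors and below 0 for 3 others. With the slide as a fixed block, the contrast rests on heart 1 and spleen 4 alone. In that fit 0 receptors were called (adjusted p = 0.101 for Tlr2, 0.15 for Tlr4 and 0.105 for Tlr5), and 0.562% of all genes were. With the slide as a random block the same 3 receptors were called. The titles carry 2 dates, and heart 1 and spleen 4 differ in date. With the date as a block, the same 3 receptors were called. At the later date heart 4 exceeded spleen 4 by 2.51 for Tlr2, 2.07 for Tlr5 and 0.97 for Tlr4. Heart 4 and spleen 4 lay on different slides, so no heart and spleen array shared both slide and date.

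**Figure D3:**
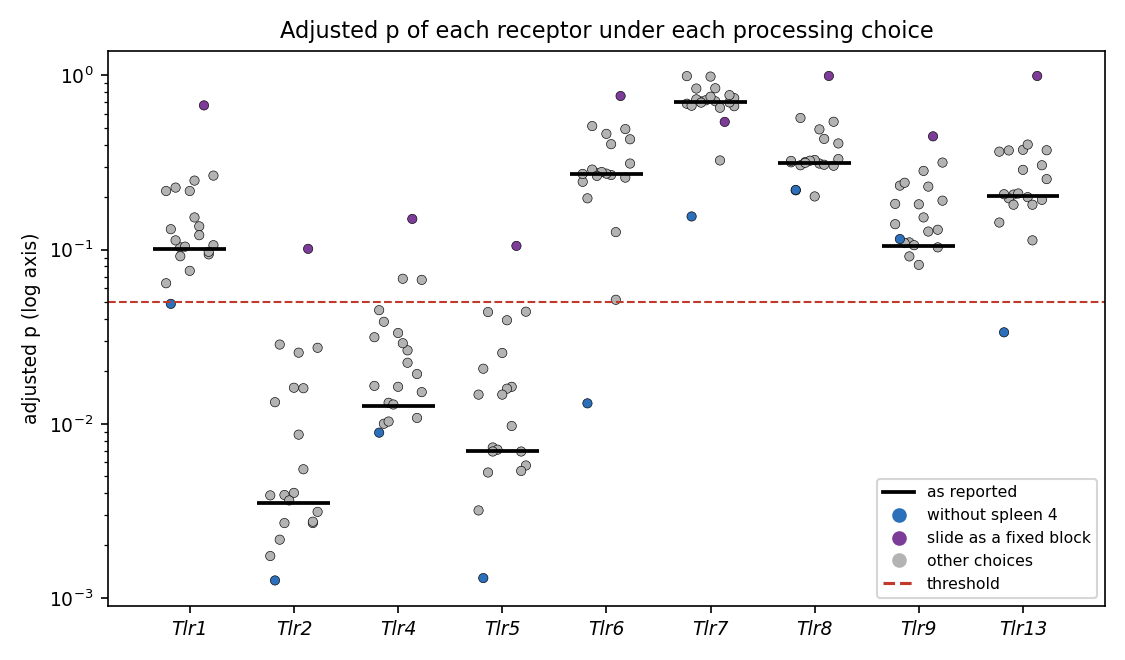
Adjusted p of each receptor on a log axis under the reported processing (black bar) and the 20 other choices (points). Blue points leave out spleen 4, purple points have the slide as a fixed block, and the dashed line is the threshold of 0.05. The purple points of Tlr2, Tlr4 and Tlr5 lie above the line and the blue points of Tlr1, Tlr6 and Tlr13 below it.

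The molecules that hand ligands to the surface receptors differed from each other. Cd14, which passes lipopolysaccharide to Tlr4 and lipoproteins to Tlr2, had 7.31, 7.36 and 7.38 in heart, against 1.09, 1.71 and 2.79 in spleen. The hearts were nearly identical and far above all spleens, and Cd14 was 44.7-fold higher in heart (log2 5.48 ± 0.42 SE, adjusted p = 0.00151). On the slide with both tissues, heart 1 exceeded spleen 4 by 4.52. Ly96, which encodes the MD-2 protein that holds lipopolysaccharide on Tlr4, gave 3.38, 3.35 and 3.18 in heart, against 0.95, 1.54 and 2.78 in spleen. The groups did not overlap, but the difference of 1.55 ± 0.45 SE missed the threshold (adjusted p = 0.0681). Of the 6 repeats with 1 array left out, Ly96 passed only without spleen 4 (adjusted p = 0.00355). In the other repeats its adjusted p reached 0.198. On the slide with both tissues, heart 1 exceeded spleen 4 by 0.6 for Ly96. Lbp, the lipopolysaccharide-binding protein, was lower in heart (log2 -2.35 ± 0.54 SE, adjusted p = 0.0349), a call that ended whichever heart array was left out (adjusted p between 0.105 and 0.127). Of the 6 genes in that group, 1 was higher and 1 lower, and the brightest of the rest, Ly86, had a log2 change of 0.38 (adjusted p = 0.302). Beside this count and those of the lists below, 9.04% of all tested genes were higher in heart and 6.46% lower. Beside calls that ended without a heart array, 2.65% to 3.04% of all genes were called in those repeats, against 15.5% with all arrays.

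Genes that fold, carry and process the receptors included 2 of 7 chaperone and trafficking genes higher in heart and 0 lower, with a median log2 change of 0.31. Rab7b, a small GTPase of late endosomes reported to promote the breakdown of Tlr4 and Tlr9, was 19-fold higher in heart (log2 4.25 ± 0.37 SE, adjusted p = 0.00205). Hsp90b1, the chaperone gp96 needed for folding of most of these receptors, changed by 0.91 (adjusted p = 0.0406), a call that held in 1 of 6 repeats with an array left out. Unc93b1, which escorts the endosomal receptors, did not pass, at 4.54, 4.54 and 4.53 in heart and 3.69, 4.16 and 4.81 in spleen (log2 0.31, adjusted p = 0.516). Of 9 proteases and nucleases of the endosome, 4 were higher and 0 lower in heart, with a median of 1.20. The largest changes there were those of Ctsl (log2 3.25, adjusted p = 0.00428), Ctsk (3.1, adjusted p = 0.0041) and Lgmn (2.60, adjusted p = 0.00852), which encode cathepsin L, cathepsin K and legumain. The Lgmn call ended without heart 4 (adjusted p = 0.0525). Ctss, which encodes cathepsin S, changed by 0.89 and missed the threshold (adjusted p = 0.0637).

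Among the TIR adaptors, 0 of 5 were called in limma after adjustment, with a median log2 change of 0.32. Myd88, the adaptor of all the receptors here but Tlr3, had 4.67, 4.75 and 4.70 in heart, against 3.56, 4.30 and 4.76 in spleen. Spleen 4 lay above every heart, and the difference of 0.50 (95% interval -0.26 to 1.25) did not pass (adjusted p = 0.328). The values were -0.33 for Tirap, which links Tlr2 and Tlr4 to Myd88, 0.32 for Ticam1 (TRIF), 0.32 for Ticam2 (TRAM) and 1.25 for Pik3ap1 (BCAP). The smallest adjusted p among these 5, that of Pik3ap1, was 0.0557. Pik3ap1 was called under 6 of the 20 alternatives, and its adjusted p lay between 0.0238 and 0.193 over them. Sarm1 was above background on no array, and Ticam2 on 3 of 3 heart arrays and 2 of 3 spleen arrays.

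Of 18 kinases and ubiquitin ligases next to the adaptors, 2 were higher and 0 lower in heart, a share near the background, with a median of 0.16. They were Traf6 (log2 1.45, adjusted p = 0.0322), the ubiquitin ligase downstream of Myd88, and the kinase Irak2 (0.61, adjusted p = 0.0458). Each was called in 2 of 6 repeats with an array left out. Chuk, the kinase IKK-alpha, changed by 0.51 (adjusted p = 0.0845). Of 14 transcription factors 4 were higher and 0 lower, with a median of 0.56. Atf3 (log2 3.39, adjusted p = 0.00622) and Fos (2.35, adjusted p = 0.00558), both induced early after stimulation, held in all 6 such repeats. Rel, an NF-kappaB subunit, changed by 1.20 (adjusted p = 0.0417) and was called in 1 of the 6. Irf1 did not pass (log2 -0.16, adjusted p = 0.721).

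Of 16 inhibitors of receptor signalling, 6 were higher and 2 lower in heart, with a median of 0.46. Tnfaip3, the deubiquitinating enzyme A20, stood at 4.15, 4.23 and 4.69 in heart, against 1.83, 0.53 and 1.25 in spleen. The groups were far apart, and the log2 change was 3.15 ± 0.36 SE (adjusted p = 0.00473). Cd300a, an inhibitory surface receptor, changed by 2.87 (adjusted p = 0.0157) and Nfkbie, an inhibitor of NF-kappaB, by 2.32 (adjusted p = 0.0114). Both of these calls ended when any heart array was left out, at adjusted p between 0.0685 and 0.0743 for Cd300a and between 0.0578 and 0.0619 for Nfkbie. The lower genes were Sigirr (log2 -1.69, adjusted p = 0.0236), an inhibitory relative of the interleukin-1 receptors, and Cyld (-1.11, adjusted p = 0.0208), a deubiquitinating enzyme, and both calls also ended without any heart array (adjusted p between 0.0849 and 0.102). Trafd1 did not pass (log2 0.18, adjusted p = 0.77).

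Among genes whose RNA is known to rise after receptor stimulation, 14 of 17 were higher in heart and 0 lower, with a median log2 change of 4.41. For 7 of the 17 (Il1a, Il6, Il10, Il23a, Cxcl1, Cxcl2 and Ptgs2) at most 1 spleen array was well above background. These 7 entered the test through heart alone, so the count and the median carry no weight as support. Of the 10 genes above background on all 6 arrays, 7 were higher, with a median of 2.29, where 9.06% of all genes were. Without a filter on dim probes 13 of 20 were higher, with a median of 2.80, where 3.42% of all genes were. The chemokine Cxcl1 had 3.16, 3.02 and 4.27 in heart, against -8.07, -7.80 and -7.46 in spleen. No spleen array was well above background for Cxcl1, so its level in heart exceeded the bound for spleen at least 522-fold. The adjusted p of 8.99e-05 in limma belongs to the fitted log2 change of 11.26, not to this bound. Cxcl2, a related chemokine, gave 4.90, 4.63 and 5.30 in heart, against -1.04, -7.54 and -7.24 in spleen (adjusted p = 0.0148). Ptgs2, which encodes cyclooxygenase 2, gave 3.37, 3.25 and 3.07 in heart, against -1.59, -7.68 and -7.48 in spleen (adjusted p = 0.0181). Of the spleens only spleen 1 was well above background for either gene. The adjusted p-values of Cxcl1, Cxcl2 and Ptgs2 thus use spleen values below background and carry no weight as support. With the dim spleen arrays held at their background floor, a choice made after seeing the data, the log2 difference was 8.89 for Cxcl2 and 7.36 for Ptgs2. Without spleen 1 the same differences were 10.35 and 8.64. Both calls ended whichever heart array was left out, at adjusted p between 0.0649 and 0.0781. Nos2, which encodes inducible nitric oxide synthase, gave 2.22, 2.03 and 2.06 in heart and 3.02, 2.18 and 2.15 in spleen (log2 -0.35, adjusted p = 0.433). Il12a, Il12b and Ifnb1 were not tested, since no tissue had them well above background on all arrays. Leaving out single heart arrays lowered the count for these genes to between 6 and 8 of 17 higher, where 1.96% to 2.16% of all genes were called higher, against 9.04% with all arrays. With the slide as a fixed block it was 2 of 17, where 0.483% of all genes were.

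Reported endogenous ligands and danger signals divided, with 2 of 11 higher and 3 lower in heart. The lower ones were Camp (log2 -8.45 ± 0.86 SE, adjusted p = 0.00341), S100a9 (-4.80 ± 0.31 SE, adjusted p = 0.000874) and S100a8 (-4.30 ± 0.26 SE, adjusted p = 0.000727). S100a8 stood at 2.99, 3.06 and 2.72 in heart, against 7.28, 7.63 and 6.77 in spleen, without overlap. These 3 genes are also on the list of neutrophil markers given above and count among its lower genes, so that list is no independent comparison for them. Of the 2 higher ones, Dcn (log2 4.27, adjusted p = 0.0114) is also on the list of fibroblast markers. For Dcn only 1 spleen array was above background, and the difference was 3.63 with the others at their floor. The heat shock protein Hspa8 changed by 0.52 and did not pass (adjusted p = 0.115). Over all pathway lists, each gene counted once, 35 of 103 tested genes were higher and 6 lower, against 9.04% and 6.46% of all tested genes, with a median of 0.51. That count includes the 7 response genes and Dcn, which entered the test through heart alone.

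**Figure D4:**
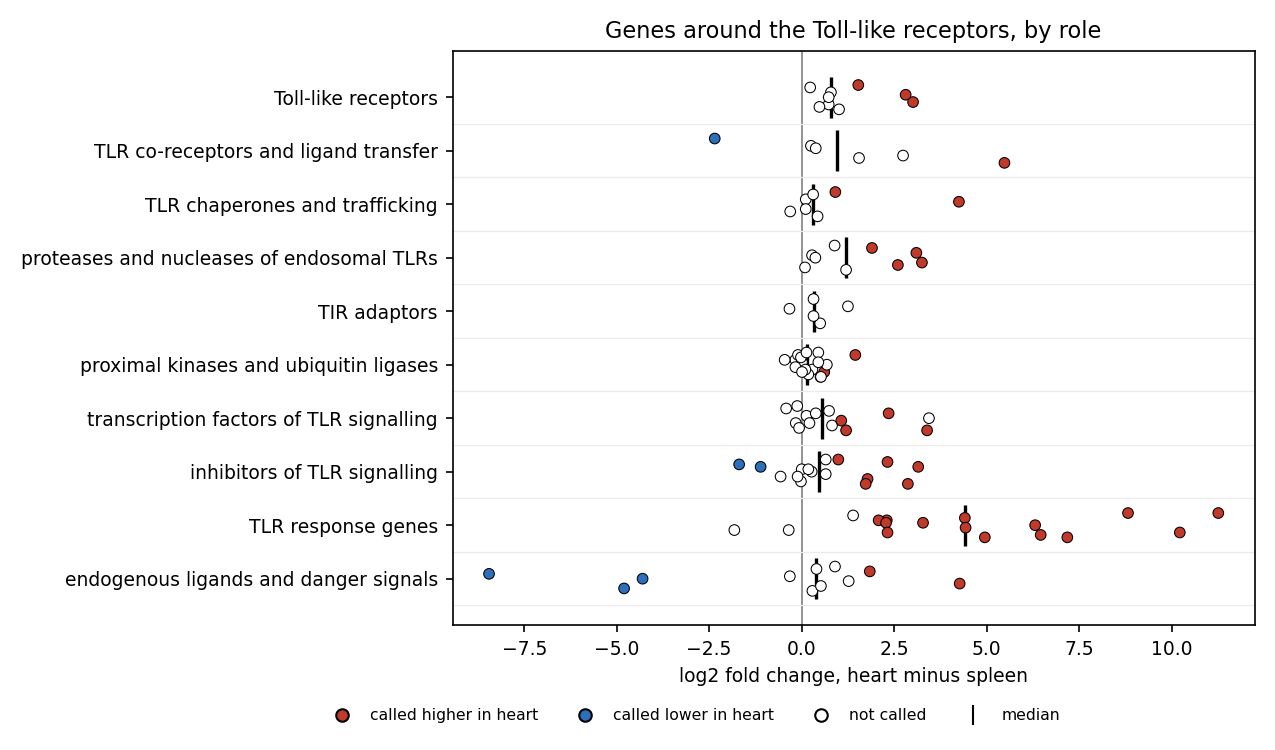
Log2 fold change, heart minus spleen, of the Toll-like receptors and of the genes in each role list. Each point is 1 tested gene, red where called higher, blue where called lower and white where not called, with the median as a black bar. Il1a, Il6, Il10, Il23a, Cxcl1, Cxcl2, Ptgs2 and Dcn are drawn at their fitted values although at most 1 spleen array was above background for them. The response genes reach furthest to the right, the TIR adaptors hold no called gene, and the 3 points furthest to the left are Camp, S100a9 and S100a8.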

How the data were processed

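The deposited intensity values came from Agilent Feature Extraction 10.7.3.1, per the submitters' processing notes and the file headers. The processed signal is corrected for background and not scaled between arrays, per the file headers. The deposited value table holds log2 values and served as an alternative. Its baseline per probe is unknown. The background calls used were also the authors' deposited flags.

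Control and outlier spots were left out, log2 signals had the array's 75th percentile subtracted, and spots of a probe were averaged. Of 39429 probes, 21801 were tested, namely those that every one of the 3 arrays of a tissue showed well above background. Each gene took its brightest tested probe, and 26412 probes were named through RefSeq accessions. Tissues were compared with limma 3.58.1 in R 4.3.3 (data.table, version 1.17.8, for file handling; lmFit, eBayes, two-sided, adjusted p under 0.05), a fit tested on simulated data. There, with each tissue's own spread, the sizes were recovered without bias, and the false share of calls exceeded the nominal one. A lower bound sets the bright mean against the higher of the dim probe's level and the array's background floor. Marker sums add linear levels relative to the percentile. Figures used matplotlib 3.10.9 in Python 3.11.15.

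Named genes are all receptors, the 3 called genes of each list with the largest change, its brightest uncalled gene, and Cd14, Ly96, the TIR adaptors, Unc93b1, Tlr11 and Tlr12. Sigirr, Cyld, Dcn, Col1a2, Ngp, Il1a, Il6, Il10 and Il23a were named after their values were seen. The receptors and lists were chosen with earlier results of these data known. With 3 arrays per tissue, their number limits the precision. The p-values set the tissue difference against the spread within tissues, which the fit takes as equal in both. The alternatives covered scaling, background correction, the filter, the probe rule, the variance prior, weights, the replicate number, slide and date as blocks, the deposited log2 values, and leaving out each array. Holding dim arrays at the floor was added after seeing the data.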

Additional observations from a re-analysis of the deposited data

How the results depend on the processing

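The direction of Tlr1, Tlr2, Tlr4, Tlr5, Tlr8 and Tlr9 was the same under all 20 alternatives. The change of Tlr7 was below 0 with quantile normalization (-0.01), the deposited value table (-0.01), the slide as a fixed block (-0.65) and without spleen 1 (-0.13), and lay between -0.13 and 0.59 over the repeats with 1 array left out. The slide as a fixed block also turned Tlr6 (-0.29), Tlr13 (-0.01) and Myd88 (-0.09). That block left 0 receptors, 5 pathway genes and 92 genes in all called, against 3, 41 and 2537, and put the receptors' median at 0.60, against 0.79. It also put the median of the chaperone and trafficking genes at -0.22, against 0.31. The receptors' median was 1.15 on the arrays of the earlier date. Leaving out single arrays gave a median between 0.44 and 1.18, 2 to 6 receptors called, 18 to 46 pathway genes called and 433 to 4024 genes called. Without a filter on dim probes, 1476 genes were called. Scaling to the array median put the median of all genes at 0.22, against 0.11 as reported, and the receptors' median at 0.90. The labels state no pairing, so the numbers were not taken to pair the samples. Deviations of same-numbered heart and spleen arrays from their tissue means correlated at -0.05, 0.04 and 0.01. With 3 arrays per tissue, these values cannot decide whether the samples were paired. With the replicate number as a block, the same 3 receptors and 1512 genes were called. Causes of these shifts were not tested. Probes near background, such as those of Tlr3, Tlr11, Tlr12 and the upstream Tlr8 probe, limit what can be said of those genes.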

Other observations

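For each receptor, the tested gene whose 6 levels were most like its own was found by the root mean square difference after each gene was centred on its own mean. That difference was 0.04 on the log2 scale between Tlr13 and Irf7, an interferon regulatory factor, whose own change was 0.82 (adjusted p = 0.177). Tlr2 was nearest to Adamtsl4 (0.10), which changed by 3.03 (adjusted p = 0.00405). Tlr4 was nearest to Creld2 (0.12), a gene of the endoplasmic reticulum, with a change of 1.43 (adjusted p = 0.00868). For Tlr5 it was Gm6100 (0.10), for Tlr1 Usp36 (0.08) and for Tlr6 Casp6 (0.09). For Tlr7 it was Evi5 (0.06), for Tlr8 Lxn (0.15) and for Tlr9 Gm2006 (0.03). Each comparison rests on 6 arrays that share their tissue difference and is a description only.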
